A study of Homo sapiens with 10 samples.

Results

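In the human embryonic kidney line HEK-293, microRNA (miRNA) levels were compared between cells treated with a small interfering RNA (siRNA) against LOC400043, a long noncoding RNA, and cells treated with a scramble siRNA. There were 2 arrays with LOC400043 siRNA 1, 2 with LOC400043 siRNA 2 and 2 with scramble, which makes 6 of the 10 arrays of the series; the other 4 arrays, of cells treated with siRNAs against LINC00324, gave only their within-group spread. All siRNAs were transfected at 10 nM with RNAiMax into the same line, and the 2 arrays per group are labelled biological replicates with no mention of separate cultures, so each p-value reflects array-to-array spread only. Arrays were chosen by the siRNA in their labels, with scramble values taken from the same normalization run as the silenced arrays. The human mature probe sets analysed here do not measure LOC400043, and how far it was silenced is not known here.

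A mature miRNA is a short RNA cut from one arm of a hairpin precursor. It guides Argonaute proteins to messenger RNAs that pair with its seed, the bases from position 2 to position 8, and miRNAs with the same seed form a family. A long noncoding RNA that carries many sites for a miRNA is called a sponge when it binds that miRNA and keeps it from other targets. The series concerns such sponges, and the comparison asks which miRNAs change in level when LOC400043 is silenced.

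Silencing of LOC400043 was followed by lower levels of let-7f-5p, miR-218-5p and miR-7-5p and by higher levels of miR-25-5p and miR-1275. Of the 1080 named human mature probe sets, 322 exceeded the detection floor and entered the test. The 5 miRNAs above were all that passed it, 1.55% of the tested, with 2 higher (0.621%) and 3 lower (0.932%). The test was limma's moderated test of the mean of both siRNA groups minus scramble, called at a Benjamini-Hochberg adjusted p under 0.05. At an unadjusted p under 0.05 there were 77. The 5 miRNAs belong to 5 seed families. Their RefSeq sequences (GRCh38.p14) are shown because these are the miRNAs the comparison turns on, 5′ to 3′ with the seed in capitals.
let-7f-5p: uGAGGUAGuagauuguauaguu
miR-218-5p: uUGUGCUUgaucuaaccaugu
miR-7-5p: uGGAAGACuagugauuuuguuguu
miR-25-5p: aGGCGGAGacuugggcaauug
miR-1275: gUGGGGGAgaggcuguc

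Levels are the authors' normalized log2 signals, all changes are log2 differences of silenced minus scramble with their standard error (SE), and p-values were adjusted in limma over the 322 tested probe sets. The detection floor was 1.37, the 95th percentile of the plant probe sets averaged over the 4 silenced arrays, so the scramble arrays did not enter it. Replicate arrays correlated across the tested probe sets with r between 0.978 and 0.986. Between 26 and 36 tested probe sets lay under the floor on a silenced array, against 16 and 19 on the scramble arrays. The median change over the 322 was −0.14, with 119 positive and 203 negative. That median was 0.12 after each array was centred on its median and −0.01 after quantile normalization, so the balance of positive and negative changes rested on the scaling.

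let-7f-5p belongs to the let-7 family, which is known for repressing growth and stem cell genes such as LIN28 and the RAS genes. Its levels were 2.16 and 2.23 with siRNA 1, 1.34 and 2.59 with siRNA 2, and 5.02 and 4.80 with scramble. All 4 silenced arrays lay below both scramble arrays, as in 23.3% of all tested, and 1 array with siRNA 2 lay under the detection floor. The mean was 2.08 ± 0.53 on silenced arrays (SD, n = 4) and 4.91 ± 0.15 on scramble arrays (SD, n = 2). let-7f-5p fell by 2.83 (SE 0.32, limma adjusted p = 0.0143), a 7.11-fold lower level, and by 2.82 with the low array raised to the floor. It passed against scramble with each siRNA, at −2.71 with siRNA 1 (adjusted p = 0.0156) and −2.94 with siRNA 2 (adjusted p = 0.0102). RefSeq places its copies at chr9:94176353-94176374 on the plus strand, within MIRLET7A1HG, and at chrX:53557246-53557267 on the minus strand, within HUWE1.

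miR-218-5p is encoded within the SLIT2 and SLIT3 genes and is best known from motor neurons. Its levels were 1.85 and 1.72 with siRNA 1, 3.85 and 3.91 with siRNA 2, and 5.09 and 4.66 with scramble. Silenced arrays were all below the scramble arrays, and those with siRNA 1 were the lowest. miR-218-5p fell by 2.04 (SE 0.26, limma adjusted p = 0.0150), a 4.11-fold lower level. With siRNA 1 the change was −3.09 (adjusted p = 0.00596), whereas that with siRNA 2 was −0.99 and did not pass (adjusted p = 0.157). The siRNAs differed in their effect on it by 2.09 (SE 0.30, adjusted p = 0.0355, siRNA 2 minus siRNA 1), a call that held in 5 of 15 alternatives and was lost with quantile normalization, median centring, the GC trend removed, the replicate block or any array left out. Its copies lie at chr4:20528299-20528319 on the plus strand and chr5:168768211-168768231 on the minus strand, per RefSeq.

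miR-7-5p, a brain-enriched miRNA that is the known partner of the circular RNA sponge CDR1as, had levels of 1.74 and 1.83 with siRNA 1, 3.19 and 2.85 with siRNA 2, and 4.06 and 3.67 with scramble. The order of the groups was the same as for miR-218-5p, with no overlap between silenced and scramble arrays. miR-7-5p fell by 1.46 (SE 0.22, limma adjusted p = 0.0245), a 2.76-fold lower level. It passed with siRNA 1 at −2.08 (adjusted p = 0.0143) and not with siRNA 2 at −0.85 (adjusted p = 0.157), while the difference between the siRNAs, 1.24, did not pass either (adjusted p = 0.0933). The RefSeq positions found for this name were chr9:83969811-83969834 on the minus strand, within HNRNPK, and chr19:4770700-4770723 on the plus strand, within MIR7-3HG. They may not be all its copies, since the hairpin of miR-7-2-3p had no position listed here for miR-7-5p. The RefSeq form is not identical to the sequence listed for the array. The passenger arm miR-7-1-3p had a change of −0.17 (adjusted p = 0.832).

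miR-25-5p is the passenger arm of a hairpin of the miR-106b cluster, which lies in the MCM7 gene, at chr7:100093610-100093630 on the minus strand. Levels were 6.09 and 6.39 with siRNA 1, 7.21 and 7.20 with siRNA 2, and 5.72 and 5.46 with scramble. All silenced arrays lay above the scramble arrays, as in 9.63% of all tested, those with siRNA 2 furthest. miR-25-5p rose by 1.13 (SE 0.15, limma adjusted p = 0.0150), a 2.19-fold higher level. It passed with siRNA 2 at 1.62 (adjusted p = 0.0102) and not with siRNA 1 at 0.65 (adjusted p = 0.0811), and the siRNAs differed by 0.97 (SE 0.17, adjusted p = 0.0469, which held in 4 of 16 alternatives).

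The other arm and the cluster neighbours of miR-25-5p did not pass. miR-25-3p, the guide arm of that hairpin, had levels of 8.76 and 8.49 with siRNA 1, 8.91 and 9.15 with siRNA 2, and 9.32 and 9.17 with scramble, a change of −0.42 (adjusted p = 0.160). All 4 silenced arrays were below the scramble arrays for this arm, the opposite side to miR-25-5p. miR-106b-5p differed by −0.14, miR-106b-3p by 0.14, miR-93-3p by 0.04 and miR-93-5p by −0.0017. The arms are printed to show how they differ.
miR-25-5p: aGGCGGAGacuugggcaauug
miR-25-3p: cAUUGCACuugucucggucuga

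miR-1275, with a GC content of 70.6%, lies at chr6:34000018-34000034 on the minus strand, in no gene span of the RefSeq table. Levels were 7.46 and 7.96 with siRNA 1, 8.62 and 8.45 with siRNA 2, and 7.12 and 6.95 with scramble. No silenced array overlapped the scramble arrays. miR-1275 rose by 1.09 (SE 0.17, limma adjusted p = 0.0245), a 2.13-fold higher level, and passed with siRNA 2 at 1.503 (adjusted p = 0.0102) but not with siRNA 1 at 0.68 (adjusted p = 0.0852). The difference between the siRNAs, 0.83, did not pass (adjusted p = 0.133).

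**Figure D1:**
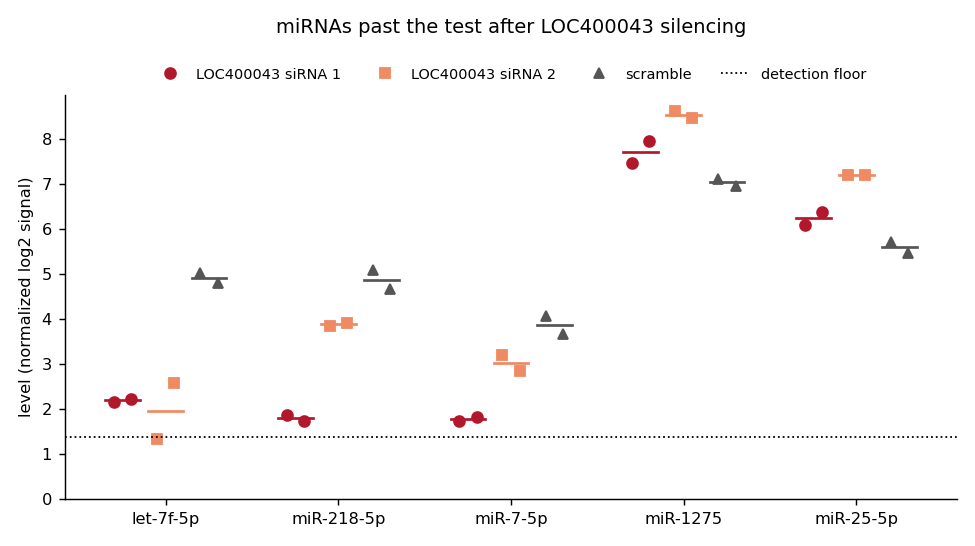
Levels (normalized log2 signal) of the 5 miRNAs that passed the test, with a point for each array, LOC400043 siRNA 1 and siRNA 2 to the left of scramble, a bar at each group's mean and the detection floor as a dotted line. No silenced array overlaps the scramble arrays in any of the 5. Among all 322 tested, silenced arrays were separate and lower in 23.3% and separate and higher in 9.63%. The 5 were called on these same values, so their separation carries no test. For miR-218-5p the siRNA 1 arrays (1.85 and 1.72) lie well below the siRNA 2 arrays (3.85 and 3.91).

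The calls depended on single arrays. Without the first scramble array, without the second, or without the second siRNA 1 array, 0 miRNAs passed in limma, with 47, 58 and 71 at an unadjusted p under 0.05. The same 5 miRNAs kept their direction in all alternatives in which they were tested, with let-7f-5p between −3.14 and −2.25. Under the stricter floor (4.30) the 3 that fell, let-7f-5p, miR-218-5p and miR-7-5p, were not tested, with mean levels of 3.02, 3.51 and 2.89. The call held in 13 of 16 alternatives for let-7f-5p, 11 of 16 for miR-218-5p, 8 of 16 for miR-7-5p, 13 of 17 for miR-25-5p and 10 of 17 for miR-1275. miR-7-5p was lost with quantile normalization and with the GC trend removed, and miR-218-5p with quantile normalization. With the silenced arrays fitted as 1 group, differences between the siRNAs count as spread, and only let-7f-5p passed. The calls of miR-218-5p, miR-7-5p, miR-25-5p and miR-1275 were lost there. Of the 79 miRNAs named, 37 turned sign under at least 1 alternative, with changes between −0.39 and 0.39, and none of these passed where it turned.

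The let-7 family had 8 tested members of 9 listed, of which 1, let-7f-5p, fell and none rose. The median change of the 8 was −0.74, against −0.14 for all 322 tested, and it stayed negative with arrays centred on their medians (−0.48), with quantile normalization (−0.52) and with the trend with GC content removed (−0.28). Silenced and scramble arrays were separate and silenced ones lower in 6 of the 8, against 23.3% of all tested. The family members share the seed and differ at a few bases, so probes for close members can bind each other's targets.

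let-7g-5p had levels of 4.43 and 4.30 with siRNA 1, 4.14 and 4.01 with siRNA 2, and 5.51 and 5.37 with scramble, a change of −1.22 (adjusted p = 0.0610). let-7i-5p had 4.46 and 4.19 with siRNA 1, 3.69 and 4.10 with siRNA 2, and 5.13 and 4.99 with scramble, a change of −0.95 (adjusted p = 0.0765). Both sets of silenced arrays lay below scramble although neither passed. let-7b-5p had 2.77 and 1.99 with siRNA 1, 2.83 and 3.32 with siRNA 2, and 3.97 and 3.39 with scramble, with a wide spread within groups (−0.95, SE 0.53, adjusted p = 0.332).

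let-7a-5p and let-7d-5p are encoded next to let-7f-5p in the chromosome 9 cluster, and their values are set beside it. RefSeq also places copies of let-7a-5p on chromosomes 11 and 22, so its level does not report that cluster alone. let-7a-5p had 7.62 and 7.40 with siRNA 1, 7.43 and 7.84 with siRNA 2, and 8.12 and 8.09 with scramble (−0.53, adjusted p = 0.0958). let-7d-5p differed by −0.39 (adjusted p = 0.263). let-7c-5p had a change of −0.11 (adjusted p = 0.787) and silenced arrays that overlapped scramble. The same held for let-7e-5p, at 0.06 (adjusted p = 0.832). miR-98-5p, encoded beside the X-linked let-7f copy, and all 9 let-7 passenger arms on the arrays averaged under the floor and were not tested.

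The family's sequences are printed to set the bases in which they differ beside the changes, as substitutions relative to let-7a-5p counted from 1 at the 5′ end. let-7f-5p differs from it by G12A, let-7g-5p by G12U and U18C, and let-7i-5p by G12U, A17G, U18C and A19U. let-7b-5p differs by A17G and A19G, let-7c-5p by A19G, let-7d-5p by U1A and U16C, and let-7e-5p by U9G. The 3 members with a substitution at position 12 had changes of −2.83, −1.22 and −0.95, and the other 5 had changes between −0.95 and 0.06. This grouping was made after the values were seen and carries no test.
let-7f-5p: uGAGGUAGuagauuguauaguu
let-7g-5p: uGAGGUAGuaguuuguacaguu
let-7i-5p: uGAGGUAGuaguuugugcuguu
let-7a-5p: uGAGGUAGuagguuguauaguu
let-7b-5p: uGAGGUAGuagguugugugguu
let-7c-5p: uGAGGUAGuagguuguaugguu
let-7d-5p: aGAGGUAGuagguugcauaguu
let-7e-5p: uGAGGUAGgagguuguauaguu

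**Figure D2:**
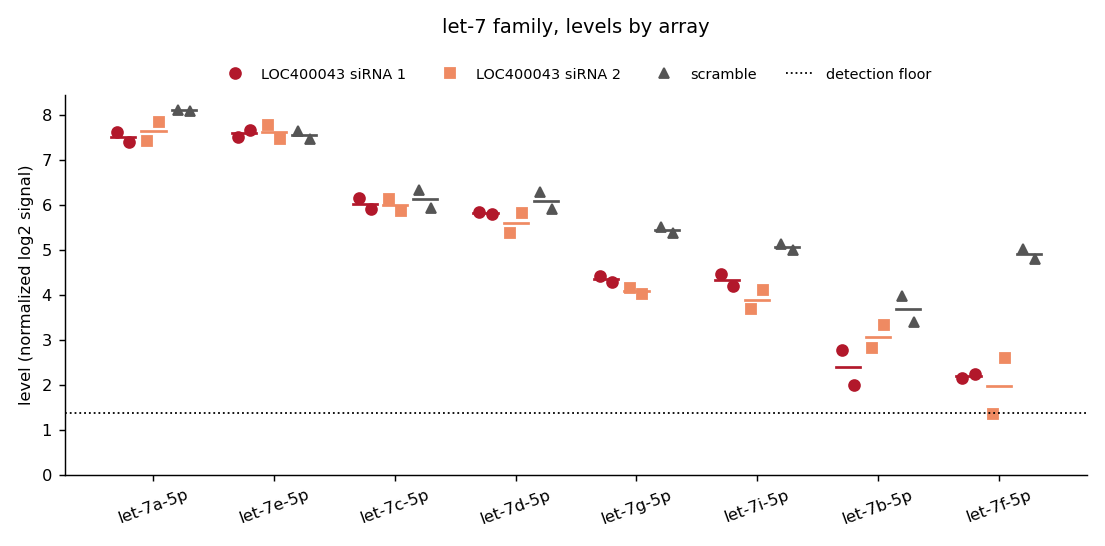
Levels (normalized log2 signal) of the 8 tested let-7 members, with a point for each array, LOC400043 siRNA 1 and siRNA 2 to the left of scramble and bars at group means. The gap between silenced and scramble arrays is widest for let-7f-5p (2.08 against 4.91 on average), and the groups overlap for let-7c-5p and let-7e-5p.

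The siRNAs were then set against scramble one at a time. With siRNA 1, 20 miRNAs passed (6.21%), 12 higher (3.73%) and 8 lower (2.48%), and with siRNA 2, 5 passed (1.55%), 2 higher (0.621%) and 3 lower (0.932%). Both comparisons use the same scramble arrays. Among miRNAs that passed, the 3 largest falls with siRNA 1 were those of miR-218-5p, let-7f-5p and miR-7-5p, given above. miR-99b-3p fell by 1.54 with siRNA 1 (adjusted p = 0.0353), with 1.80 and 2.02 on siRNA 1 arrays against 3.56 and 3.35 with scramble. miR-19a-3p, a member of the growth-promoting miR-17 cluster, fell by 1.15 with siRNA 1 (adjusted p = 0.0496), with 7.31 and 6.53 on siRNA 1 arrays against 8.09 and 8.05 with scramble. The call held in 9 of 15 alternatives for miR-99b-3p and in 6 of 16 for miR-19a-3p, whose change was −0.50 with the GC trend removed.

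Most miRNAs that rose with siRNA 1 were GC-rich, and 10 of the 12 had a GC content of at least 70%, the others being miR-3188 (60.9%) and miR-3185 (65.2%). miR-3188 had levels of 6.32 and 6.59 with siRNA 1, 5.48 and 5.96 with siRNA 2, and 3.65 and 4.52 with scramble. It rose by 2.37 with siRNA 1 (adjusted p = 0.0353), and differed by 1.64 with siRNA 2 (adjusted p = 0.143). The silenced arrays were all above scramble, yet its change over both siRNAs, 2.00, did not pass (SE 0.38, adjusted p = 0.0529), with the scramble arrays lying wide apart. miR-1909-3p rose by 1.44, miR-1469 by 1.22, miR-3185 by 1.19 and miR-939-5p by 1.12 with siRNA 1, at adjusted p-values between 0.0353 and 0.0496. In that order their calls held in 6, 11, 10 and 5 of 16 alternatives, and each was lost with the GC trend removed. With the trend of change with GC content removed, 4 miRNAs passed with siRNA 1, 1 higher and 3 lower.

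With siRNA 2 the other falls were those of both arms of miR-34a, a direct target of the tumour suppressor p53. miR-34a-5p, the guide arm, had levels of 8.13 and 8.08 with siRNA 1, 6.89 and 6.56 with siRNA 2, and 8.07 and 7.84 with scramble. miR-34a-3p had 4.05 and 3.996 with siRNA 1, 2.42 and 1.70 with siRNA 2, and 4.34 and 3.91 with scramble. For both arms the siRNA 2 arrays stood below all others, and the siRNA 1 arrays lay near scramble.

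Against scramble with siRNA 2, miR-34a-5p fell by 1.23 (adjusted p = 0.0431) and miR-34a-3p by 2.07 (adjusted p = 0.0102). With siRNA 1 the changes were 0.15 (adjusted p = 0.721) and −0.10 (adjusted p = 0.901). The siRNAs differed by −1.38 for miR-34a-5p (SE 0.21) and by −1.97 for miR-34a-3p (SE 0.27), each at an adjusted p of 0.0355. Over both siRNAs neither arm passed. For miR-34a-5p the call with siRNA 2 held in 5 of 16 alternatives and the difference in 6 of 16, and both were lost with median centring, the GC trend removed, the replicate block or any array left out. For miR-34a-3p they held in 13 of 15 and 11 of 15. The other tested p53-responsive miRNAs listed, miR-192-5p and miR-194-5p, differed by 0.17 and −0.08 over both siRNAs and did not pass. The arms are shown because they come from one hairpin and have different seeds.
miR-34a-5p: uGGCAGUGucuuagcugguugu
miR-34a-3p: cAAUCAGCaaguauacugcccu

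The difference between the siRNAs passed for 6 miRNAs (1.86%), 3 higher with siRNA 2 and 3 lower. Beside miR-218-5p, miR-25-5p and both miR-34a arms, these were miR-181a-2-3p and miR-3178. miR-181a-2-3p, a passenger arm, had 3.26 and 3.31 with siRNA 2 and 1.14 and 1.11, under the floor, with siRNA 1, beside 2.03 and 2.98 with scramble. The measured difference was 2.16 (SE 0.36, adjusted p = 0.0425, held in 6 of 15 alternatives), and from the floor its level was at least 3.77-fold higher with siRNA 2. The scramble arrays lay between the siRNA groups, and neither siRNA passed against them. miR-3178, with a GC content of 88.2%, had 11.69 and 11.55 with siRNA 2 and 12.49 and 12.69 with siRNA 1, beside 11.67 and 11.77 with scramble, a difference of −0.98 (SE 0.17, adjusted p = 0.0425, held in 4 of 16).

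Differences that fell short of the threshold were split by GC content. At an adjusted p from 0.05 to 0.1 there were 14 positive changes, 0.43 to 2.00, and 11 of these miRNAs had a GC content of at least 70%. The 23 negative changes, −1.29 to −0.43, held 0 such miRNAs. GC-rich examples among the positive ones were miR-1469 (0.86, adjusted p = 0.0529), miR-2861 (0.72, adjusted p = 0.0579), miR-1915-3p (0.83, adjusted p = 0.0586), miR-638 (0.63, adjusted p = 0.0659) and miR-3196 (0.61, adjusted p = 0.0765). Their composition shows in the sequences of 3 of them.
miR-1469: cUCGGCGCggggcgcgggcucc
miR-1915-3p: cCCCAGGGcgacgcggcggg
miR-2861: gGGGCCUGgcggugggcgg

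Over all 55 tested miRNAs with a GC content of at least 70%, the median change was 0.36 and 41 were positive, against a median of −0.20 in the other 267. Their median level was 5.06 and 5.20 with siRNA 1, 4.78 and 4.32 with siRNA 2, and 4.09 and 4.38 with scramble, so the siRNA 1 arrays stood highest and 1 siRNA 2 array lay within the scramble values. Silenced arrays were separate and higher in 17 of the 55, where 9.63% of all tested were, and separate and lower in 2. Median changes in the classes under 40%, from 40% to under 55% and from 55% to under 70% were −0.29, −0.24 and −0.13. Across the 322 miRNAs the correlation of change with GC content was r = 0.41 (rho = 0.38) for silencing, 0.45 (rho = 0.40) for siRNA 1 and 0.28 (rho = 0.29) for siRNA 2. These describe miRNAs measured on the same 6 arrays, which are not independent, and the part of GC content in the changes was not tested.

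**Figure D3:**
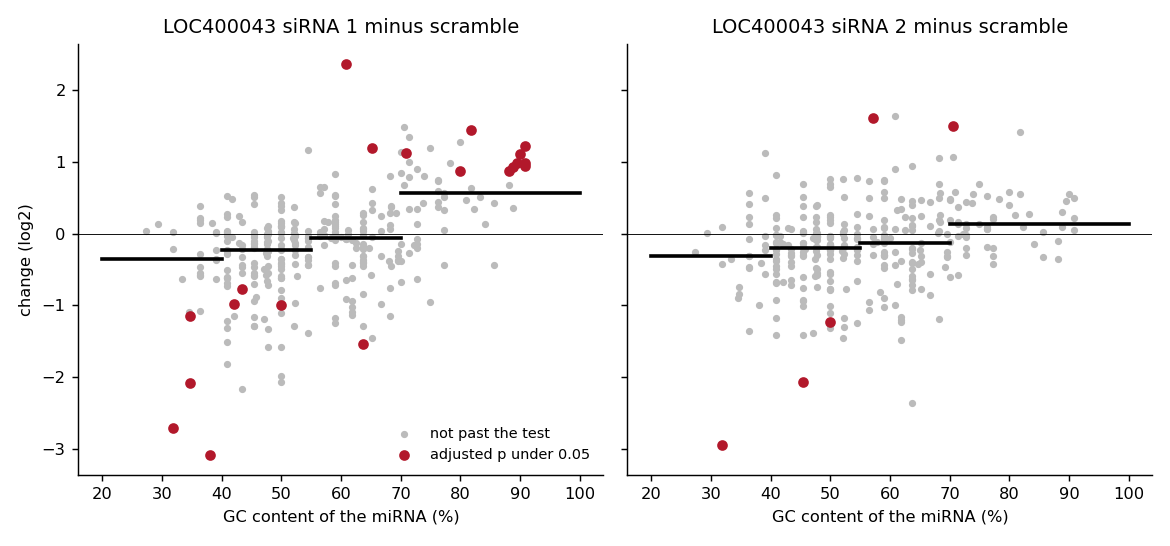
Change against scramble (log2) of the 322 tested miRNAs by GC content (%), with siRNA 1 in one panel and siRNA 2 in the other, black bars at the median of each GC class and red points for an adjusted p under 0.05. In the panel of siRNA 1 most called rises sit at a GC content of at least 70% (10 of 12), where the median change was 0.57, and with siRNA 2 it was 0.14.

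Of the negative changes just short of the threshold, miR-4306 differed by −1.29 (adjusted p = 0.0529), with 2 silenced arrays under the floor. miR-126-3p, known from endothelial cells, had 3.73 and 4.17 with siRNA 1, 3.53 and 3.41 with siRNA 2, and 4.90 and 4.86 with scramble (−1.17, adjusted p = 0.0644). miR-18b-5p had 8.26 and 8.07 with siRNA 1, 8.09 and 8.36 with siRNA 2, and 9.03 and 8.85 with scramble (−0.75, adjusted p = 0.0529). In both, all silenced arrays lay below scramble, and those of miR-126-3p were the wider spread. miR-766-3p (−1.17, adjusted p = 0.0681) and miR-491-5p (−0.87, adjusted p = 0.0681) had the same separation, found in 23.3% of all tested. For miR-491-5p 2 silenced arrays lay under the floor, and the change was −0.77 with values raised to the floor.

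**Figure D4:**
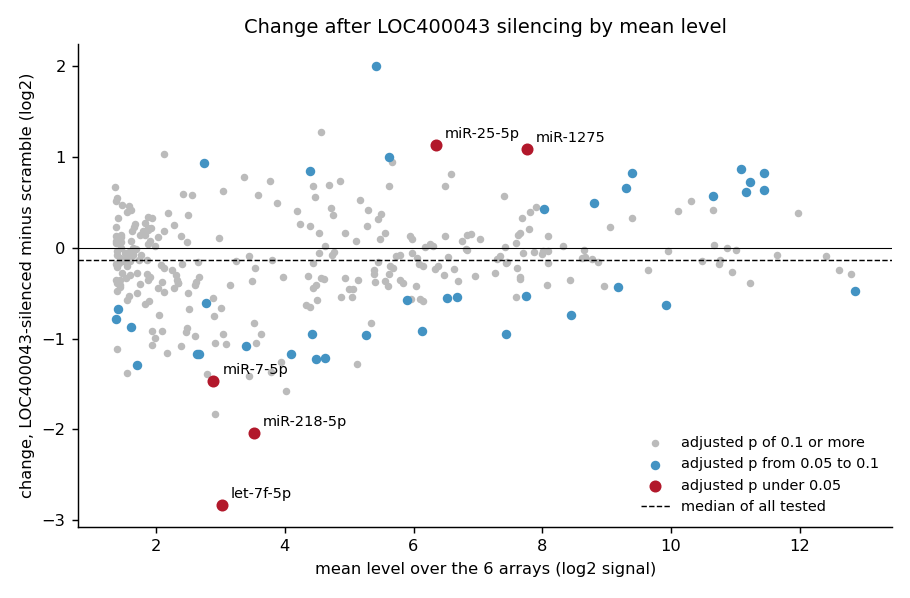
Change of silenced minus scramble (log2) against mean level over the 6 arrays (log2 signal) for the 322 tested miRNAs, red for an adjusted p under 0.05, blue from 0.05 to 0.1, and a dashed line at the median change of −0.14. Of the 5 called, 3 lie in the band of levels from 1.99 to 4.41, where the median size of change was 0.59.

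The miR-17 cluster and its paralogs, which promote growth in many cell types, had 19 tested members of 28 listed, of which 1 rose (miR-25-5p) and none fell. Their median change was −0.25 and 14 were negative, but the median was 0.01 with arrays centred on their medians and 0.14 with the GC trend removed. miR-17-5p had 12.75 and 12.70 with siRNA 1, 12.69 and 12.68 with siRNA 2, and 13.26 and 13.10 with scramble (−0.47, adjusted p = 0.0698). miR-20a-5p differed by −0.29 and miR-106a-5p by −0.25, and neither passed. The silenced arrays of these 3 miRNAs all lay below scramble, as in 10 of the 19 members and in 23.3% of all tested. With the GC trend removed miR-20a-5p (0.17) and miR-106a-5p (0.13) turned positive.

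The list of the miR-30 family, known from kidney epithelium, had 8 tested members, all with a negative change and none past the test. Among them miR-30a-3p, miR-30e-3p and miR-30b-3p are passenger arms with other seeds, and miR-30b-3p averaged 1.49, near the floor. The list's median was −0.63, and −0.43, −0.37 and −0.24 with quantile normalization, median centring and the GC trend removed. miR-30b-5p had 5.88 and 6.001 with siRNA 1, 5.82 and 6.13 with siRNA 2, and 6.84 and 6.24 with scramble (−0.58, adjusted p = 0.151). miR-30c-5p differed by −0.41 (adjusted p = 0.206). Silenced arrays were separate and lower in 5 of the 8 members, against 23.3% of all tested, and miR-30e-5p had the widest silenced values, from 1.90 to 4.66.

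Other families had no member past the test. Most of these lists also hold passenger arms, whose seeds differ from those of the guide arms. The miR-15 and miR-16 family, which restrains the cell cycle, had a median of −0.34 over 8 tested members, and 0.05 with the GC trend removed. The miR-29 list had a median of −0.33 over 3 tested members. It was −0.18 with quantile normalization, −0.07 with median centring and −0.06 with the GC trend removed. The −0.33 is the change of miR-29b-2-5p, a passenger arm with another seed and a mean level of 1.54, near the floor. The guide arms miR-29a-3p and miR-29c-3p, of the family that targets collagen genes, differed by −0.83 and −0.29. miR-29c-3p averaged 1.59, also near the floor, with 1 silenced array under it. The median was −0.14 over 6 members of the clusters of miR-23, miR-27 and miR-24. The miRNAs encoded in the HOX clusters had a median of −0.34 over 9 tested members, and 0.06 with the GC trend removed. The joint list of the miR-26, miR-148, miR-103 and miR-107 families had −0.37 over 6, and 0.12 with that trend removed. The miR-181 family had a median of 0.01 over 6 tested members, and the miR-34 and p53-responsive list had −0.31 over 4, and −0.05 with median centring and −0.0029 with the GC trend removed. The miR-99, miR-100 and miR-125 families (−0.09 over 6), the miR-183 cluster (−0.17 over 3) and the miR-130 family (−0.10 over 2) had medians that turned positive with arrays centred on their medians, as did that of the miR-23, miR-27 and miR-24 list (0.12). Of 12 pluripotency miRNAs of the miR-302 and miR-371 clusters, 0 were tested.

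**Figure D5:**
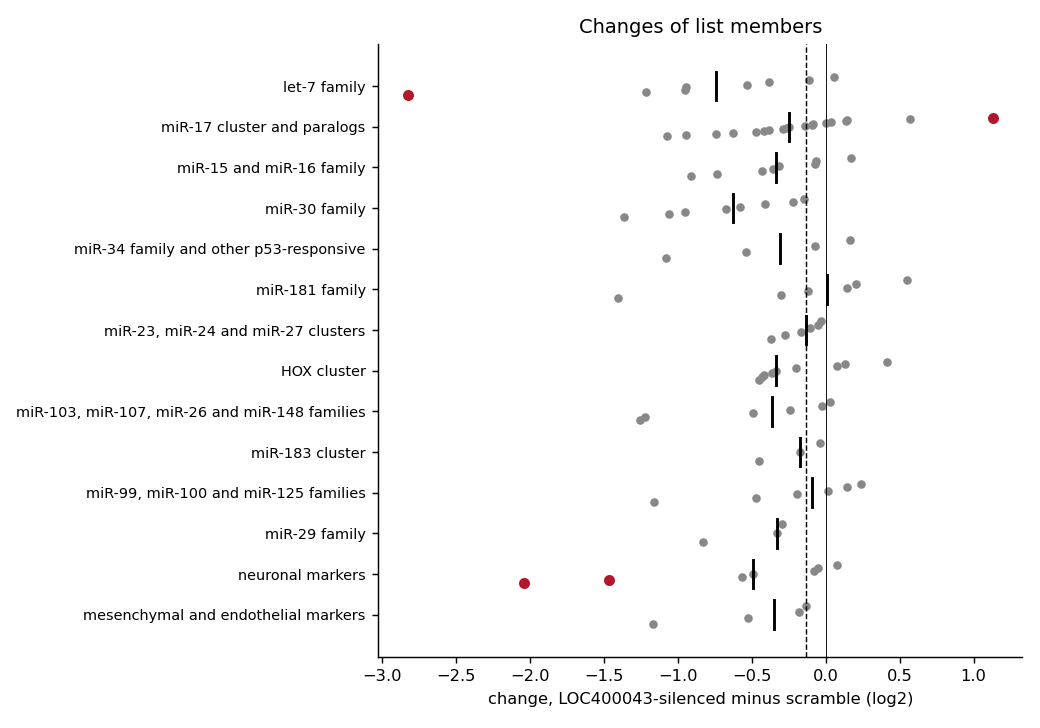
Change of silenced minus scramble (log2) for each tested member of the miRNA lists, a row for each list with at least 3 tested members, with a black bar at the list's median, red points for an adjusted p under 0.05 and a dashed line at the median of all tested (−0.14). All 8 tested members of the miR-30 list, passenger arms included, lie left of 0, and let-7f-5p is the lowest point at −2.83.

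Markers of other cell types were looked at because some of the called miRNAs are among them. Of 12 neuronal markers 7 were tested and 2 fell, miR-218-5p and miR-7-5p, where 0.932% of all tested fell. The list was looked at because it holds these called miRNAs, so this count carries no test. The median change was −0.49, and −0.18 with quantile normalization, −0.23 with median centring and −0.26 with the GC trend removed. The summed linear signal of the list was 179 to 216 on silenced arrays and 240 to 255 on scramble arrays. miR-132-3p differed by 0.07 (adjusted p = 0.832) and miR-128-3p by −0.57 (adjusted p = 0.0958), and miR-124-3p, a defining marker of neurons, averaged 1.501 on silenced and 1.55 on scramble arrays, near the floor. The part of the marker lists in the other results was not tested. Blood cell markers had 2 tested of 9, miR-486-5p (−1.83, adjusted p = 0.146) and miR-451a (0.19, adjusted p = 0.787), and a summed signal of 18.6 to 30.3 on silenced arrays, against 30.7 to 37.5 on scramble arrays. Mesenchymal and endothelial markers had 4 tested of 10, none past the test, with a median change of −0.35 (0.01 with the GC trend removed), and a summed signal of 2925 to 3674 on silenced arrays, against 3699 to 3814 with scramble. All 7 muscle and both liver markers lay under the floor on every array, and of 7 epithelial markers only miR-200c-3p was tested (0.11, adjusted p = 0.832). All arrays are of the line HEK-293, so the lists do not measure numbers of neurons, blood cells or endothelial cells. In bulk RNA fewer cells with a given miRNA and less of it per cell cannot be told apart.

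The authors' deposited table gives its lowest p-values to let-7f-5p (−2.83, p = 2e-05), let-7g-5p (−1.22, p = 4e-05), miR-96-5p (−0.78, p = 0.00025), miR-4306 (−1.29, p = 0.0003) and miR-3188 (2.00, p = 0.00043). Whether the p-values of the authors' deposited table were adjusted is not given in the sources used here. Of these 5 miRNAs only let-7f-5p passed the adjusted limma test over both siRNAs. miR-96-5p lay under the floor and was not tested. With the floor taken from all 10 arrays, miR-96-5p was tested and passed over both siRNAs, as did miR-4306 and miR-3188.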

How the data were processed

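Per the labels, each sample's total RNA was hybridised to its own Affymetrix miRNA 2.0 array. The authors deposited normalized log2 signals of 20706 probe sets for all 10 arrays, and a table of 1130 human mature miRNAs with log2 signals, a log2 fold change and a p-value for LOC400043 silencing, per the file headers. The submitters' processing notes name limma. How the background was corrected and the arrays normalized, and the build, is not stated by any label or header used. The scramble arrays have other values in each table (median shift 0.09, SD 0.24), so they were taken from the LOC400043 table, whose deposited fold changes equal the differences used here within 0.0005. There, 4 columns matched no label and were not used. A normalization that aligns arrays hides a shift common to most miRNAs.

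Of 1100 human mature probe sets 1080 were named by the authors' tables, 22 with several names. A probe set was tested where the 6 arrays averaged more than 1.37, which is the 95th percentile of 2837 plant probe sets averaged over the 4 silenced arrays. limma 3.58.1 in R 4.3.3 fitted 1 mean per group over 5 groups (5 residual and 2.00 prior degrees of freedom, median SD 0.281), with Benjamini-Hochberg adjustment at 0.05. The number of arrays limits the precision. Sequences and positions came from RefSeq (GRCh38.p14), which held 285 of the 322 tested. GC content came from the array's sequences. Scripts were tested on simulated data. Plots were made in Python 3.11.15 with matplotlib 3.10.9.

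Named miRNAs were every one past the threshold, filled up to 12 in each direction by the lowest p, and, among those past the threshold, the 5 largest changes in each direction for each siRNA and for their difference. The rule added other arms and neighbours within 10 kb of those that passed, by RefSeq positions where the authors' table gave none, the 3 highest tested members of each list and any that passed, and the 5 lowest p-values of the deposited table. Members and all 21 lists were chosen with earlier results of these data known. No label says that replicate numbers pair the samples, and they were not used as pairs. Deviations of same-numbered arrays correlated at 0.01 to 0.04, which cannot show whether the arrays were run in pairs.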

Additional observations from a re-analysis of the deposited data

Results flagged for a closer look

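For 6 miRNAs the siRNAs differed in their effect by limma's test of the difference itself (siRNA 2 minus siRNA 1, log2, adjusted over the 322 tested), although both are directed at LOC400043. The difference was 2.16 for miR-181a-2-3p (adjusted p = 0.0425) and 2.09 for miR-218-5p (adjusted p = 0.0355). miR-25-5p was 0.97 higher with siRNA 2 (adjusted p = 0.0469). miR-34a-3p differed by −1.97 and miR-34a-5p by −1.38 (adjusted p = 0.0355 each). miR-3178 differed by −0.98 (adjusted p = 0.0425). Relative to scramble, miR-218-5p was at −0.99 with siRNA 2 (not past the test) and −3.09 with siRNA 1, and miR-25-5p at 1.62 with siRNA 2 and 0.65 with siRNA 1 (not past the test). For miR-34a the siRNA 2 arrays alone lay apart from scramble. No group had enough arrays for a test of a single outlying array.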

How the results depend on the processing

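Over both siRNAs 5 miRNAs passed, and 9 passed with the 6 arrays fitted alone, 16 with median centring, 38 with robust moderation along a variance trend, 33 with the stricter floor (4.30), 11 with a floor from all 10 arrays and 1 with the silenced arrays as 1 group. With siRNA 1 20 passed, and 9 with quantile normalization, 4 with the GC trend removed, 43 with a variance trend, 11 without the floor and 39 with the stricter floor. With siRNA 2 5 passed, and 0 with the 6 arrays alone (57 unadjusted) and 13 with a variance trend. Between siRNAs 6 passed, and 2 with the 6 arrays alone, 1 with median centring, 1 with the GC trend removed, 18 with a variance trend, and 3 each without the floor and with the stricter floor. With the replicate number as a block, the counts were 7, 16, 5 and 1. No label says that these numbers pair the samples. Leaving out 1 array at a time, with the lone array assumed to vary like other groups, gave 0 to 7 for silencing, 0 to 19 for siRNA 1, 0 to 5 for siRNA 2 and 0 to 2 for the difference. Of the 5 called for silencing, 3 passed again with quantile normalization and 4 with the GC trend removed, where miR-7-5p did not. With median centring the split was 13 higher and 3 lower, and with quantile normalization 4 and 1. The fewer residual degrees of freedom (3) with 6 arrays come from its construction, and the causes of the other shifts were not tested.

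Of 1652 comparisons of 100 results with their alternatives, 77 reversed, all in changes over both siRNAs that had not passed (miR-3178 and miR-181a-2-3p passed in other comparisons). With the GC trend removed these were miR-10a-5p 0.039, miR-3178 −0.020, miR-196a-5p 0.058, miR-20a-5p 0.17, miR-15a-5p 0.10, miR-106a-5p 0.13, let-7d-5p 0.037, miR-26a-5p 0.18, miR-222-3p 0.043, miR-23a-3p 0.14, miR-301a-3p 0.12, miR-196b-5p 0.14, miR-99a-5p 0.069, miR-30a-5p 0.12, miR-106b-5p 0.25, miR-221-3p 0.17, miR-23b-3p 0.20, miR-181b-5p 0.18, miR-183-3p 0.17, miR-16-5p 0.27, miR-29c-3p 0.21, let-7c-5p 0.31, miR-194-5p 0.27, miR-7-1-3p 0.25, miR-182-5p 0.37, miR-24-3p 0.15, miR-103a-3p 0.28 and miR-93-5p 0.22. With median centring they were miR-106a-5p 0.011, miR-26a-5p 0.019, miR-222-3p 0.079, miR-23a-3p 0.091, miR-196b-5p 0.058, miR-99a-5p 0.063, miR-30a-5p 0.037, miR-106b-5p 0.12, miR-221-3p 0.12, miR-23b-3p 0.15, miR-181b-5p 0.14, miR-183-3p 0.087, miR-16-5p 0.18, let-7c-5p 0.15, miR-194-5p 0.18, miR-7-1-3p 0.084, miR-182-5p 0.22, miR-24-3p 0.22, miR-103a-3p 0.24 and miR-93-5p 0.26. With quantile normalization they were miR-20a-5p 0.017, miR-7-1-3p 0.21 and miR-107 −0.16. Leaving out 1 array at a time turned the sign of further small differences, which then ranged as miR-181a-2-3p −0.78 to 0.17, miR-183-3p −0.37 to 0.026, miR-451a −0.012 to 0.39, let-7c-5p −0.31 to 0.090, miR-192-5p −0.36 to 0.69, miR-194-5p −0.20 to 0.045, miR-200c-3p −0.20 to 0.43, miR-7-1-3p −0.52 to 0.17, let-7e-5p −0.030 to 0.14, miR-132-3p −0.026 to 0.17, miR-182-5p −0.11 to 0.033, miR-24-3p −0.085 to 0.015, miR-107 −0.016 to 0.079, miR-103a-3p −0.13 to 0.087, miR-93-3p −0.0875 to 0.16, miR-99b-5p −0.11 to 0.13 and miR-93-5p −0.016 to 0.012. Probe sets near the floor limit what can be seen, since 16 to 36 tested ones lay under it on an array.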

Other observations

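Of 52 hairpins with both arms tested, 24 had arms whose silencing changes were of opposite sign. The median change was −0.15 over the arms with the higher level and −0.21 over the other arms. A gap of over 1.5 between arms was found in 2 hairpins, miR-25 (1.55), whose arms are described above, and miR-551b (1.70), chosen here after its values were seen. miR-551b-3p had levels of 1.48 and 1.90 with siRNA 1, 1.24 and 1.71 with siRNA 2, and 3.30 and 2.01 with scramble. miR-551b-5p had 3.61 and 3.98 with siRNA 1, 3.62 and 1.81 with siRNA 2, and 2.67 and 2.58 with scramble. Neither arm passed (adjusted p = 0.172 and 0.526).

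Groups of miRNAs with a shared seed were described by their median change, beside −0.14 for all tested. The seed GAGGUAG of let-7 had −0.74 over 8 miRNAs. The seed CUGGACU had −0.45 over 4, all negative: miR-378a-3p, miR-378b, miR-378c and miR-422a, with changes of −0.36, −0.67, −0.15 and −0.55. The seed AUUGCAC of miR-25-3p and its relatives had −0.37 over 4, and AAAGUGC of the miR-17 group had −0.27 over 6. All 6 were negative, miR-93-5p by only −0.0017. With the GC trend removed miR-20a-5p, miR-106a-5p, miR-106b-5p and miR-93-5p turned positive. The seed ACAUUCA of the miR-181 family had 0.04 over 4. No miRNA of these groups other than let-7f-5p passed the limma test, and the groups were chosen after their values were seen.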
